A study of Mus musculus with 11 samples.

Results

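Regions between genes that were bound by RFX1, RFX2 and RFX3 are described here in ependymal cells, the ciliated cells that line the brain ventricles. Peaks of the 3 factors that shared at least 1 bp were merged into 11236 regions, and 1221 of these (10.9%) held peaks of all 3 factors. A region was kept when the summit of its first RFX1 peak, the base of strongest signal, lay outside all protein-coding genes and more than 1 kb from their starts and ends. This left 347 shared intergenic regions, which are 28.4% of the 1221 shared regions (95% exact Clopper-Pearson interval 25.9% to 31%). The other shared regions comprised 506 inside genes and 368 at gene ends, that is, within 1 kb of the start or end of a protein-coding gene. The regions were chosen by their RFX1, RFX2 and RFX3 peak calls and by position, so peak strength and position are given as description, with no test.

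Wild-type OF1 mice gave the brain lateral walls from which the cells were differentiated ex vivo; the labels call this tissue embryonic and give the age as P0. All 11 samples share that strain and genotype. They are 6 chromatin immunoprecipitation (ChIP) samples, 2 per factor, and 5 input chromatin samples, of which 2 belong to RFX1, 2 to RFX2 and 1 to RFX3. A separate antibody was used for each factor, and the lot of the one for RFX2 differed between its replicates. The replicates of a factor had already been merged into 1 peak list, with 7440 peaks for RFX1 and 9318 for RFX3; the RFX2 list was the shortest of the 3. No value below therefore has a replicate error, the read depth is unknown, and the intervals on shares cover the counting of regions or genes only. The lists hold no expression values, so the cell type could not be checked against marker genes.

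The RFX family of winged-helix factors binds DNA as dimers at the X-box, an imperfect inverted repeat with a variable middle. In ciliated cells they are known for activating genes that build and move cilia, often from X-boxes close to the start of the gene. Bound sites between genes can be distal enhancers, starts of noncoding genes or sites with no known role, and the nearest gene is a positional label, not a known target.

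The genome sequence of most of the 347 regions was not used here. For 15 of them the RFX1 summit lay in a RefSeq promoter window, which runs from 250 bases before to 50 bases after a gene start. All 15 windows belonged to genes of long noncoding RNAs (lncRNAs). The windows cover only lncRNA and protein-coding genes, and members lie away from protein-coding genes, so the placing rule leaves little else. Some of the 15 windows are printed here, since their sequence can be read directly beside the summits. Each is the stretch of 50 bases to either side of the RFX1 summit that the window holds, in RefSeq assembly GRCm38.p6, printed 5′ to 3′ on the strand of the lncRNA gene. Capitals mark the nearest motif to the summit. In the first set of lines the capitals are a full X-box.
Gm36472 (chr1:93115218-93115318, plus strand): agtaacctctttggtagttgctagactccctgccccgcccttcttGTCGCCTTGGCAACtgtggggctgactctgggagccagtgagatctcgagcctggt
1500009C09Rik (chr15:82255968-82256068, plus strand): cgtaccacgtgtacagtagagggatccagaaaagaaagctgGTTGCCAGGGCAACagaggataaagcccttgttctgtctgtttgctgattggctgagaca
C130026L21Rik (chr5:111581368-111581468, plus strand): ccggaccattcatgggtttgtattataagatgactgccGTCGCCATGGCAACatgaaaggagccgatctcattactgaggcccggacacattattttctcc

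In the next set the capitals are a single arm of the X-box, spelled GTTNCC or, on the other strand, GGNAAC. Of 8 stretches with an arm only, those printed have its centre 3, 2, 4 and 13 bp from the RFX1 summit, in order. Those not printed are 1700064M15Rik, 6430584L05Rik, Gm35079 and Gm30991, where it lies 27, 32, 44 and 7 bp away. The printed lines thus lean towards arms close to the summit.
Gm30908 (chr2:166471333-166471433, plus strand): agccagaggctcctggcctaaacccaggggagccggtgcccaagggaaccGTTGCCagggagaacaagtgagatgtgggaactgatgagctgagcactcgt
Gm13491 (chr2:51610384-51610454, minus strand): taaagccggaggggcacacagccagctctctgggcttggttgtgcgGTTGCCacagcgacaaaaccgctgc
Gm42196 (chr3:28176422-28176522, plus strand): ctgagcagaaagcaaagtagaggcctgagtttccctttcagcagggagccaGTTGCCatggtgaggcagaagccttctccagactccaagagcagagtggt
4933404O12Rik (chr5:136919009-136919109, plus strand): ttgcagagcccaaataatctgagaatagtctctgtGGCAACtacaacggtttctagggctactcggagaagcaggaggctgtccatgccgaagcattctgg

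In 4 of the 15 stretches neither motif was found, and 1 of them is printed without capitals.
1700086L19Rik (chr12:74284144-74284244, plus strand): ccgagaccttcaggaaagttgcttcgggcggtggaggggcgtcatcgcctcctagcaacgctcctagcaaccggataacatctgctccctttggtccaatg

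The X-box and its single arm were searched on both strands; a match to the arm may lie inside a match to the X-box. The X-box was taken as a pair of facing arms, each with variable letters that the single arm as spelled above does not allow, and 0 to 3 free bases between them. Around the RFX1 summit, 3 of the 15 stretches held an X-box (20%, interval 4.33% to 48.1%), against 50 of 231 such stretches at shared gene-end regions (21.6%) and 0.457% of the middle stretches of all 32851 promoter windows. An arm was found in 11 of the 15 (73.3%, interval 44.9% to 92.2%), against 176 of 231 at shared gene-end regions (76.2%) and 17.9% of all middle stretches. The shares in the 15 stretches and in the gene-end stretches overlapped in their intervals, and the interval for the 15 is wide. The windows of these 15 are a small part of the 347 regions and all belong to lncRNA genes, so they do not stand for the rest. A match describes letters only, and a stretch without one says only that these letters are not in it.

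The marked motif was the X-box, or failing that the arm, nearest to the RFX1 summit within 50 bases. Short distances, above all for RFX1, are therefore partly fixed by that choice, and no background distance was computed. In the 11 stretches with a motif, the median distance from the centre of the marked motif was 6 bp for the RFX1 summit (highest 44 bp), 10 bp for RFX2 (highest 48 bp) and 16 bp for RFX3 (highest 41 bp). At Gm36472, each of the 3 summits was 2 bp from the centre of the X-box, and at C130026L21Rik they were 6, 4 and 4 bp away for RFX1, RFX2 and RFX3. At 1500009C09Rik the distances were 3 bp for RFX1, 4 bp for RFX2 and 16 bp for RFX3. In 14 of the 15 windows the RFX1 summit lay upstream of the start on which the window is built, by up to 197 bp, and in 1 it lay 29 bp downstream. For 3 of them, 1500009C09Rik, Gm20083 and Gm30991, that start is not the gene end of the RefSeq gene table: by the table, the summit lies inside the lncRNA gene, 3546, 1539 and 9330 bp from its nearest end.

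A shared intergenic region also covered the hairpin of a microRNA. The region at chr11:75173504-75173976 (GRCm38) had its RFX1 summit at position 75173711, inside the Mir132 hairpin (chr11:75173682-75173747, plus strand), and 233 bp from the hairpin of Mir212. The mature miR-132 and miR-212 are shown because their 3p forms share a seed, the bases 2 to 8 that pair with target messenger RNAs, given in capitals. Their 5p forms differ in seed.
mmu-miR-132-3p: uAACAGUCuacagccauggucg
mmu-miR-212-3p: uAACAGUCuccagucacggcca
mmu-miR-132-5p: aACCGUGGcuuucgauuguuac
mmu-miR-212-5p: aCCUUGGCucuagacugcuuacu
In the Mir132 hairpin itself, printed as RNA from RefSeq, capitals mark 3 matches to the arm.
Mir132 hairpin: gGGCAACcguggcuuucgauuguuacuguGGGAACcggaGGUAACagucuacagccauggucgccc

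The RFX1 summit lay 26, 3 and 13 bp from the centres of these 3 matches in the order printed, the RFX2 summit 32, 4 and 7 bp and the RFX3 summit 9, 20 and 30 bp. Of 1005 hairpins in the table, 147 (14.6%) held at least 1 match to the arm. MiR-132 is known as a neuronal microRNA induced by activity. The Mir132 region had fold enrichments of 9.63 for RFX1, 10.6 for RFX2 and 6.74 for RFX3, with −log10 q of 92.3, 45.7 and 79.5 in that order of factors. Its nearest protein-coding gene end was that of Ovca2, 2232 bp away. Another member, at chr7:79506269-79506584, lay 1055 bp from Mir9-3, whose miR-9 is known in neural progenitors; it was picked after its values were seen, since it falls just outside 1 kb. It had folds of 6.55 for RFX1, 8.18 for RFX2 and 6.49 for RFX3.

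The share lying between genes was lower among shared regions than among regions of fewer factors, a difference that was not tested. Against 28.4% of shared regions, 36.4% of the 4298 regions with RFX1 and RFX3 but no RFX2 peak lay between genes (1564 regions, interval 34.9% to 37.8%), as did 34% of the 1900 regions with RFX1 alone (646 regions, interval 31.9% to 36.2%). Of the 3788 regions with RFX3 alone, placed by their RFX3 summit, 50% (1893 regions, interval 48.4% to 51.6%) lay between genes. For all 7435 regions with an RFX1 peak the share was 34.5%, and for all merged regions it was 39.7%. The lists differ in length, so a class without an RFX2 peak is one in which none was called.

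Each shared intergenic region held 1 peak of each factor, except 1 region near Zswim4 that held 2 RFX3 peaks. The median region spanned 511 bp (range 286 to 1358). The 3 summits of a region lay within a median of 26 bp of each other (quartiles 14 and 42 bp, range 1 to 825 bp). In 287 of 347 regions (82.7%) all 3 summits fell within 50 bp, against 433 of 506 shared regions inside genes (85.6%) and 323 of 368 at gene ends (87.8%). Only 7 of the 347 had summits more than 100 bp apart. The RFX2 summit was a median of 12 bp and the RFX3 summit a median of 14 bp from the RFX1 summit. Most of the 347 regions are thus single, narrow positions common to the 3 lists.

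**Figure D1:**
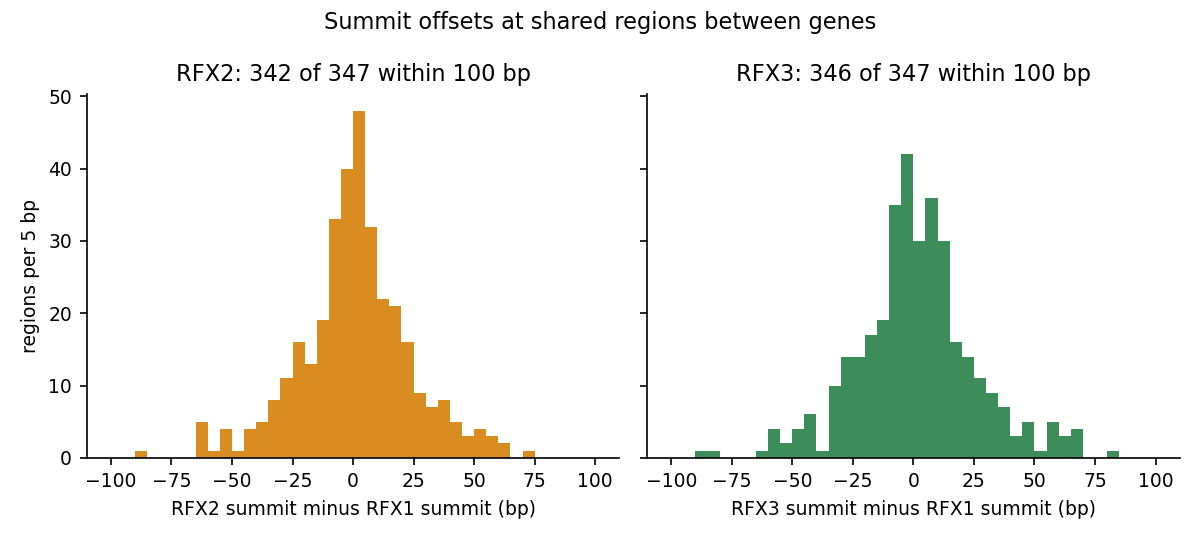
Histograms of the distance of the RFX2 summit (left) and the RFX3 summit (right) from the RFX1 summit, in bp, at the 347 shared intergenic regions; bars count regions per 5 bp. Offsets centre on 0 for both factors, and 342 RFX2 summits and 346 RFX3 summits lie within 100 bp and are drawn.

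The peaks in these regions ranged widely in strength. Fold enrichment is the authors' ratio for each peak, read here as ChIP signal over background, and −log10 q is the strength of the call on a scale where higher is stronger. RFX1 fold had a median of 12.8 in the shared intergenic regions (quartiles 10.21 and 16.9, range 4.57 to 46.5), RFX2 fold a median of 10.4 (8.83 and 13.7, range 5.91 to 44.7), and RFX3 fold a median of 13.1 (7.96 and 21.3, range 2.71 to 59.4). Each list rests on its own antibody, and the control and depth behind each are unknown, so levels of different factors are not on a common scale, and a ratio between them only orders regions against each other.

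Set beside the other shared regions, the intergenic ones had the highest median RFX3 fold. The RFX3 median was 13.1 between genes, against 10.9 inside genes and 6.10 at gene ends. The RFX2 median was 10.4 between genes, against 10.4 inside genes and 8.74 at gene ends. The RFX1 median was 12.8 between genes, against 12.9 inside genes and 13.2 at gene ends, so RFX1 fold hardly differed between the classes. The call strengths were ordered differently. Median RFX3 −log10 q was 60.1 between genes, 61.2 inside genes and 67.3 at gene ends. Median RFX1 −log10 q was 78.4 between genes, 83.3 inside genes and 117 at gene ends. Thus the intergenic regions had the higher RFX3 fold but not the stronger RFX3 call, and whether the background under the peaks moves with position was not tested.

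**Figure D2:**
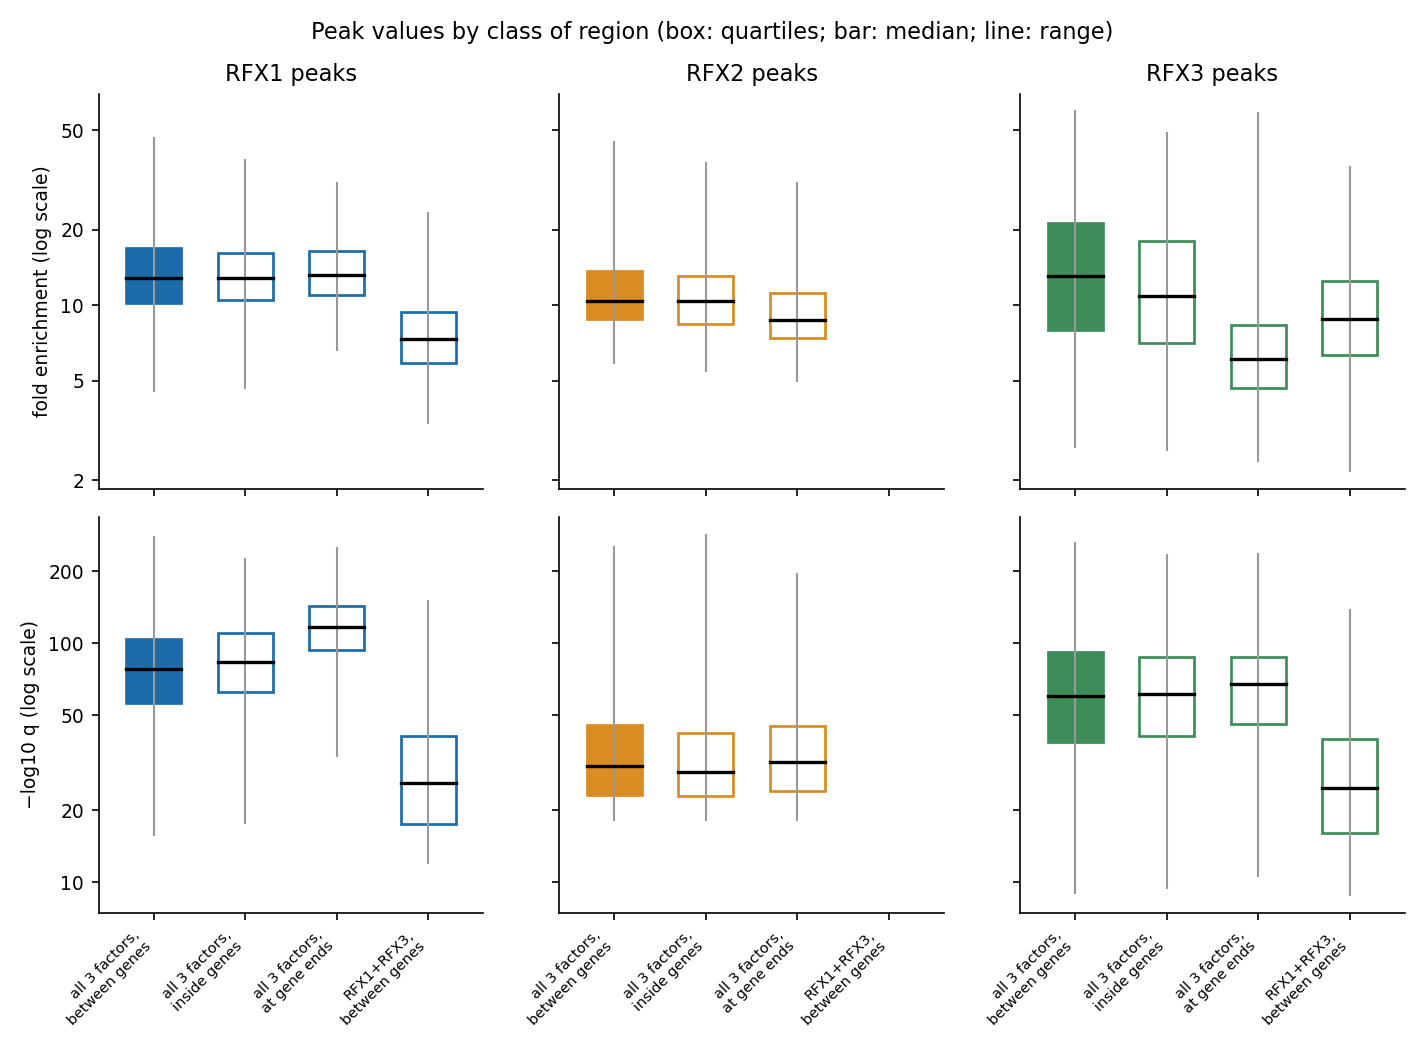
Fold enrichment (top, log axis) and −log10 q (bottom, log axis) of RFX1, RFX2 and RFX3 peaks in 4 classes of region; boxes give quartiles, bars the median and lines the range over regions. The filled boxes are the shared intergenic regions, whose median RFX3 fold of 13.1 is above the 6.10 of shared gene-end regions, while the RFX1 medians of 12.8 and 13.2 lie close together.

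Regions between genes that lacked an RFX2 peak were weaker in both other factors. Median RFX1 fold was 12.8 in the shared intergenic regions against 7.36 in the 1564 intergenic regions with RFX1 and RFX3 alone, and median RFX3 fold was 13.1 against 8.79. Median −log10 q was 78.4 against 26.1 for RFX1 and 60.1 against 24.9 for RFX3. The RFX2 list is the shortest of the 3, and a region could become shared only through it, so this difference is built into the choice of the regions.

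Shared intergenic regions supplied some of the strongest peaks of every list. They held 5 of the 10 best RFX1 peaks by −log10 q, 6 of the 10 best RFX2 peaks and 5 of the 10 best RFX3 peaks. They also held 26, 34 and 32 of the best 100 in the RFX1, RFX2 and RFX3 lists. The 347 members make up a far larger part of the short RFX2 list than of the lists of 7440 RFX1 and 9318 RFX3 peaks. The counts of best peaks were not set against these parts, so they cannot be compared between lists. For the same reason, the RFX2 counts alone do not show that members rank above the rest of that list. A region became a member only through the RFX2 list, so strength in RFX1 and RFX3 is partly built into the choice. At the other end, the weakest member by RFX1 ranked 6128 of 7440 and the weakest by RFX3 ranked 9204 of 9318. Across the 347 regions, Spearman's rho between folds was 0.47 for RFX1 and RFX2, 0.46 for RFX2 and RFX3, and 0.29 for RFX1 and RFX3. These are descriptions over regions of the same merged lists, which share libraries and called positions.

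The member with the best mean rank over the 3 lists lay at chr16:9280645-9281558, 286738 bp from the end of Grin2a, which encodes a subunit of the NMDA-type glutamate receptor. It lay inside the lncRNA gene Gm41418 and had folds of 28.1 for RFX1, 29.9 for RFX2 and 45.4 for RFX3. It ranked 3 in the RFX1 list, 7 in the RFX2 list and 1 in the RFX3 list. Its RFX1 and RFX2 summits fell on the same base, 9281163, and its RFX3 summit at 9281142. This region was thus near the top of every list while lying far from any protein-coding gene end.

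The next member, at chr19:38234821-38235973, lay between Fra10ac1 and Lgi1, 10786 bp from the end of Fra10ac1. Lgi1 encodes a secreted synaptic protein. At the region, RFX1 fold was 34.9, RFX2 fold 44.7 and RFX3 fold 53.5, with ranks 7, 2 and 3. Another, at chr8:86389688-86390647, was 114420 bp from Abcc12, a gene of the ABC transporter family, with folds of 25.1 for RFX1, 33.5 for RFX2 and 52.8 for RFX3. All 3 summits of that region fell within 6 bp.

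The top RFX1 peak of the whole list was also a member. At chr7:83580901-83581535, 3817 bp from Tmc3, a member of the transmembrane channel-like family, RFX1 fold was 46.5, RFX2 fold 33.2 and RFX3 fold 59.4, and the ranks were 1, 35 and 2. The RFX3 fold of 59.4 was also the highest of the 347. Near Pi15, a gene for a secreted peptidase inhibitor, the region had folds for RFX1, RFX2 and RFX3 of 41.9, 30.8 and 47.1, and lay 152434 bp from the gene. Near Dhrs2, a gene of the short-chain dehydrogenase family, RFX1 fold was 32.2, RFX2 fold 32.3 and RFX3 fold 37.6. These regions had high folds for all 3 factors.

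Other leading members were less even. The region near Fbln2, which encodes the matrix protein fibulin-2 and whose other flanking gene is Wnt7a, a Wnt ligand, had folds for RFX1, RFX2 and RFX3 of 21.3, 17.1 and 37.5 and ranked 5 in the RFX3 list. The region near Matn1, which encodes a cartilage matrix protein, ranked 9 for RFX1 and 3 for RFX2 but 186 for RFX3, with folds of 28.7, 37.7 and 21.1. The region near Lcp2, a gene for an adaptor protein of immune cells, ranked 26, 6 and 160, with folds of 29.6 for RFX1, 44.6 for RFX2 and 35.3 for RFX3. Among the 10 best by mean rank, RFX3 fold was lowest near Snx10, a sorting nexin gene, at 9.51 (RFX1 19.0, RFX2 14.7), and near Fbxl16, an F-box gene, at 10.6 (RFX1 21.0, RFX2 21.2). The remaining member of the 10, near the methylglyoxal-detoxifying gene Glo1, had folds of 20.8 for RFX1, 18.6 for RFX2 and 24.2 for RFX3.

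The balance between RFX3 and RFX1 differed by position. RFX3 fold was above RFX1 fold in 178 of 347 shared intergenic regions (51.3%, interval 45.9% to 56.7%), in 198 of 506 inside genes (39.1%, interval 34.9% to 43.5%) and in 29 of 368 at gene ends (7.88%, interval 5.34% to 11.1%), against 33.2% of all 1221 shared regions. The share among the 1564 intergenic regions with RFX1 and RFX3 alone was 62.3%, a higher share still. The median log2 ratio of RFX3 over RFX1 fold was 0.03 between genes (range -2.24 to 2.16), against -0.20 inside genes and -1.13 at gene ends. RFX2 fold exceeded RFX1 fold in 110 of the 347 (31.7%), against 142 of 506 inside genes (28.1%) and 53 of 368 at gene ends (14.4%). The fold of the 3 that was highest was RFX3 in 158 shared intergenic regions, RFX1 in 138 and RFX2 in 51, whereas RFX1 was highest in 296 of the 368 at gene ends.

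**Figure D3:**
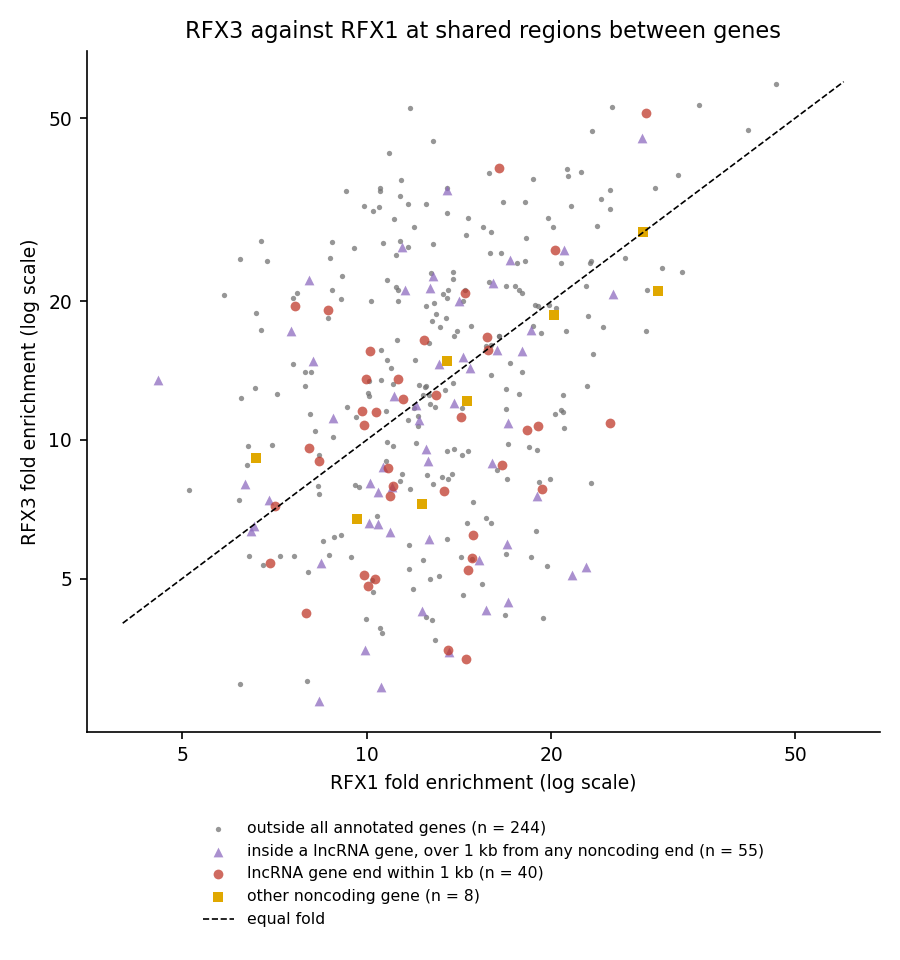
RFX3 fold against RFX1 fold (both axes log) at the 347 shared intergenic regions, 1 point each; the dashed line marks equal folds and symbols give the noncoding annotation at the RFX1 summit. Points lie on both sides of the line, 178 of them above it, and spread over RFX3 folds of 2.71 to 59.4.

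The members with the highest ratio of RFX3 to RFX1 had RFX1 folds below the median of 12.8. Near Syk, which encodes a tyrosine kinase, RFX3 fold was 52.5, against 11.8 for RFX1 and 13.7 for RFX2, a ratio of RFX3 to RFX1 of 4.47. The ratio was 4.02 near Spata4, 3.97 near Aco1, which encodes cytosolic aconitase, 3.86 near Tmpo, which encodes a lamina-associated protein, and 3.75 near Rapgef5, which encodes an exchange factor for Rap GTPases. At the other extreme, near Midn, RFX3 fold was 4.11, against 19.4 for RFX1 and 6.88 for RFX2, a ratio of 0.212. The ratio was 0.230 near Epop, 0.232 near Gpr158, an orphan receptor gene, 0.236 near Pfkfb3, a regulator of glycolysis, and 0.248 near Zswim4. These 5 were high in RFX1 and low in RFX3, with RFX1 folds of at least 14.5 and RFX3 folds of at most 5.30. The Zswim4 region is the one with 2 RFX3 peaks. Its RFX3 fold is that of the peak with the stronger call, and its summits spread over 825 bp. That ratio therefore does not compare the same position.

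RFX2 had its own extremes. The highest ratio of RFX2 to RFX1 fold was 2.05, near Impdh1, a gene of guanine nucleotide synthesis, with folds of 7.92 for RFX1, 16.2 for RFX2 and 13.1 for RFX3. The ratio was 1.96 near Zfp36l1, which encodes an RNA-binding protein that promotes mRNA decay, 1.88 near Adra1a, an adrenergic receptor gene, 1.78 near Mettl21a and 1.75 near Cdyl. It was lowest, at 0.354, near Midn, and then 0.372 near Slc38a11, 0.377 near Bbc3, a pro-apoptotic gene, 0.4003 near Adamts16 and 0.402 near Sp3. The region near Midn was thus lowest of the 347 in both ratios to RFX1.

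The RFX1 summits lay a median of 33414 bp from the nearest protein-coding gene end (range 1008 to 847129 bp). Of the 347, 54 lay between 1 and 5 kb, 84 between 5 and 20 kb, 134 between 20 and 100 kb and 75 between 100 and 1000 kb. Median RFX3 fold was 8.92, 11.6, 12.9 and 17.7 in these bins, from near to far. Median RFX1 fold was 13.0, 12.9, 12.6 and 13.5, and median RFX2 fold was 10.4, 10.3, 10.3 and 10.5. RFX3 fold was thus higher farther out, while RFX1 and RFX2 folds were level. RFX3 exceeded RFX1 in 14 of 54, 38 of 84, 74 of 134 and 52 of 75 regions. Median RFX3 −log10 q showed no such order, at 62.0, 61.3, 58.6 and 63.5. Spearman's rho of distance was 0.28 with RFX3 fold, 0.11 with RFX2 fold and 0.06 with RFX1 fold over the 347 regions, and 0.03 with RFX3 −log10 q. The order by distance was not particular to intergenic regions: rho of distance with the log2 ratio of RFX3 to RFX1 was 0.25 between genes and 0.33 over the 506 shared regions inside genes, where rho with RFX3 fold was 0.37.

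**Figure D4:**
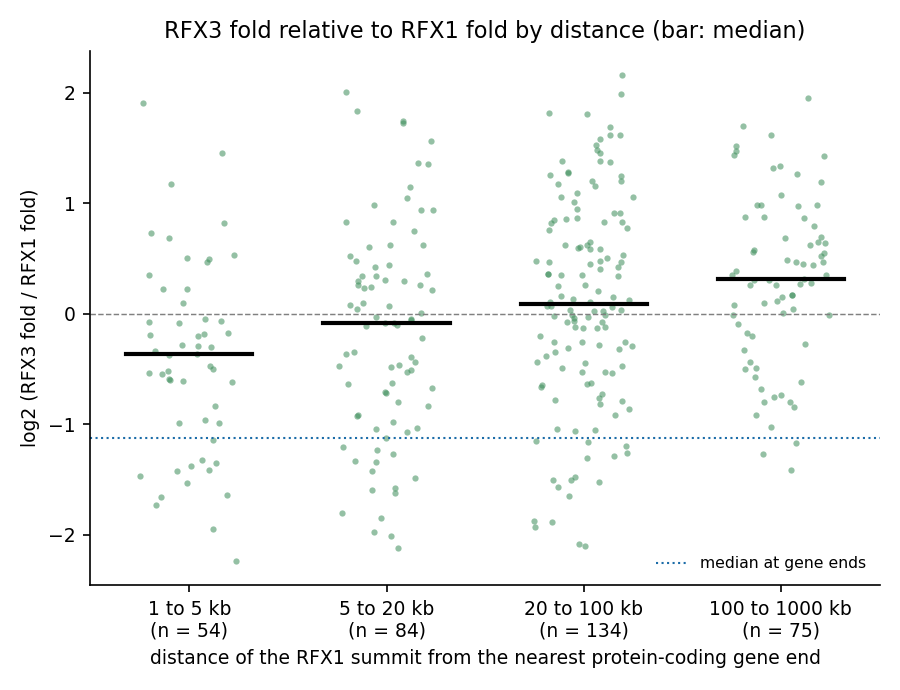
Log2 ratio of RFX3 fold to RFX1 fold in the shared intergenic regions, by distance of the RFX1 summit from the nearest protein-coding gene end; points are regions, bars are medians and the dotted line is the median of shared gene-end regions. The medians run from -0.37 at 1 to 5 kb to 0.31 beyond 100 kb, and each lies above the gene-end median of -1.13.

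The farthest members lay over 500 kb from any protein-coding gene end. The region nearest to Ttll7, which encodes a tubulin polyglutamylase, was 847129 bp away, with folds of 19.8 for RFX1, 18.7 for RFX2 and 19.6 for RFX3. Those nearest to Slitrk1, a synaptic adhesion gene, Adamts5, a matrix protease gene, Zfp608 and Vstm2b were 765224, 677480, 668028 and 576605 bp away. Their RFX1 folds of 17.0, 19.9, 12.2 and 22.8 were above the median of 12.8 for the 347 in all but the Zfp608 region.

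At the limit of 1 kb, the members just beyond it lay 1008, 1020, 1096, 1135 and 1156 bp from Rusf1, Copz2, Tfdp2, Klhl21 and Usp2. In that order, their RFX1 folds were 30.3, 13.5, 9.71, 15.4 and 11.5, and their RFX3 folds were 23.6, 3.50, 7.90, 4.88 and 12.2. The shared regions just short of the limit, which are not members, lay 870, 862, 808, 732 and 706 bp from Ap3m2, Mus81, Eef1akmt2, Wdr88 and Mlec. Their RFX1 folds were 13.0, 18.6, 16.3, 11.6 and 7.28, and their RFX3 folds were 4.09, 5.12, 17.3, 15.1 and 4.14. The values on either side of the limit overlapped for both factors.

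Most members lay away from noncoding genes as well, but less often than other shared regions. The share outside noncoding genes and over 1 kb from their ends was 70.3%, against 90.1% inside genes and 85.3% at gene ends. It was 73.3% in intergenic regions with RFX1 and RFX3 alone. Inside a noncoding gene lay 22.5% of members, against 6.72%, 9.51% and 21.6% in these classes. An end of any noncoding gene was within 1 kb of 47 of 347 members (13.5%), against 8.6% of all shared regions. Of the 347, 244 (70.3%) had their RFX1 summit outside all annotated genes and more than 1 kb from their ends, 55 lay inside a lncRNA gene away from noncoding ends, and 40 (11.5%, interval 8.36% to 15.4%) lay within 1 kb of the end of a lncRNA gene. Such a lncRNA end was near 14 of 506 shared regions inside genes (2.77%), 36 of 368 at gene ends (9.78%) and 143 of 1564 intergenic regions with RFX1 and RFX3 alone (9.14%), against 7.37% of all shared regions. The share at members was therefore close to that of the other intergenic regions. Median RFX3 fold was 14.8 at the 244 regions away from noncoding genes, 10.6 at the 40 near a lncRNA end and 9.56 at the 55 inside lncRNA genes. RFX3 exceeded RFX1 in 137 of the 244, 18 of the 40 and 20 of the 55.

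Within 1 kb of an RFX1 summit stood 40 lncRNA genes, 6 pseudogenes and 3 microRNA genes, the microRNA genes at 2 members. The lncRNA gene with the strongest RFX3 peak by fold at its end was Gm29461, 291 bp from the summit, with folds of 28.5 for RFX1, 14.6 for RFX2 and 51.4 for RFX3. Cdr1os, whose RNA includes the precursor of a circular RNA that binds miR-7, had its end 276 bp from a summit on chromosome X with folds of 20.3 for RFX1, 10.4 for RFX2 and 25.9 for RFX3. Gm36472, whose X-box is printed above, had folds of 18.2 for RFX1, 12.6 for RFX2 and 10.5 for RFX3. Gm13491, with an arm only, had folds of 8.64 for RFX1, 14.4 for RFX2 and 19.1 for RFX3. In the 15 members with a promoter window, RFX3 exceeded RFX1 in 4, with median folds of 12.4 for RFX1, 9.14 for RFX2 and 7.58 for RFX3.

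The 347 regions were scattered. Their numbers ran between 6 on chromosome X and 28 on chromosome 2, which are 8.70% and 14.9% of the intergenic regions with an RFX1 peak there. That share ran from 8.46% on chromosome 5 to 19.3% on chromosome 7. The median distance to the next member was 1929353 bp, and 16 of the 347 had another member within 50 kb. Some other merged region lay within 50 kb of 191, but the pool of 11236 merged regions is far larger, so the 2 counts are not comparable. The closest pair lay 1740 bp apart near Myo16, which encodes an unconventional myosin, with folds of 13.5 and 14.6 for RFX1, 9.26 and 18.3 for RFX2, and 18.4 and 30.3 for RFX3. A pair near Fos, an immediate early transcription factor gene, lay 16877 bp apart, with RFX1 folds of 13.6 and 13.1 and RFX3 folds of 3.47 and 5.05. A pair near Socs3, which encodes an inhibitor of cytokine signalling, lay 23723 bp apart, with RFX1 folds of 12.9 and 18.5 and RFX3 folds of 11.8 and 5.57. These pairs were picked after their values were seen.

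The nearest protein-coding genes of the 347 regions were 332 different genes, which are 1.52% of 21887. Of these, 317 were nearest to 1 member and 15 to 2, and no gene was nearest to 3 or more. Few were bound at their own ends: 29 of 332 (8.73%) had an RFX1 summit within 1 kb of an end, against 9.05% of all protein-coding genes, 5 (1.51%) had an RFX2 summit, against 2.08%, and 32 (9.64%) had an RFX3 summit, against 7.94%. The nearest genes were thus bound at their ends about as often as genes in general. The gaps between genes that held members had a median length of 161618 bp. This is longer than the median of 23731 bp over all 16782 gaps over 2 kb, but shorter than their median weighted by length, 486351 bp, which is the fitting value for positions that fall in gaps. A long gap gives its neighbours more room to be nearest, so the gap length is given beside the gene groups below. These groups were chosen with earlier results of these data known, so their shares are descriptions and not tests.

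Genes of transcription factors of neural and ependymal cells were nearest to a member in 8 of 96 cases (8.33%, interval 3.67% to 15.8%), against 1.52% of all protein-coding genes. The longest gap beside a gene of this list had a median of 357 kb, against 28.5 kb for all protein-coding genes, and the part of gap length in the share was not tested. When a region farther than 100 kb was not assigned to a gene, the share was 4 of 96 (4.17%, interval 1.15% to 10.3%), an interval that includes the 1.20% of all protein-coding genes under that rule. The best by RFX1 was the region 33278 bp from Id4, which encodes an inhibitor of basic helix-loop-helix factors in neural progenitors. It had folds of 19.3 for RFX1, 8.23 for RFX2 and 7.82 for RFX3. It lay 120 bp from the lncRNA gene Gm36183. The region 71734 bp from Sox9, a gene of glial fate, had folds of 14.3 for RFX1, 11.9 for RFX2 and 11.7 for RFX3. Its ranks in these lists were 973, 453 and 2528.

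Others of this group differed in their RFX3 values. The region 480746 bp from Nr2f1, a nuclear receptor gene of cortical patterning, had folds of 18.1 for RFX1, 9.53 for RFX2 and 32.9 for RFX3. The region 157494 bp from Zbtb20, a zinc-finger gene of hippocampal and astroglial development, had folds of 18.7 for RFX1, 12.7 for RFX2 and 36.9 for RFX3. By contrast, the region 436062 bp from Sox2, a gene of neural stem cells, had 8.003 for RFX1, 8.42 for RFX2 and 2.99 for RFX3. The region near Zic5, a zinc-finger gene of neural development, had folds of 6.21, 10.3 and 2.96. The remaining genes, Nfib, a glial differentiation factor, and Zeb1, a repressor of epithelial genes, had RFX1 folds of 10.1 and 7.62 and RFX3 folds of 8.08 and 5.58. Only Zeb1 of these 8 also had a summit at its own end, of RFX1 and RFX3.

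Synaptic adhesion and glutamate receptor genes were nearest to a member in 6 of 83 cases (7.23%, interval 2.70% to 15.1%), beside gaps with a median of 601 kb. They were Grin2a, described above, Slitrk3, Slitrk1, Ncam1, Ptprs and Ntng2. Near Slitrk3, which encodes an adhesion protein of inhibitory synapses, RFX1 fold was 20.9, RFX2 fold 10.1 and RFX3 fold 25.9 at 243794 bp. Near Ncam1, the neural cell adhesion molecule gene, the folds in the same order were 9.28, 7.998 and 11.8 at 162778 bp. None of the 6 had a summit of any RFX within 1 kb of its own ends. With assignment within 100 kb only, the share was 2.41% (interval 0.293% to 8.43%), against 1.20% of all protein-coding genes. Cadherin and protocadherin genes, whose gaps were longer still with a median of 904 kb, were nearest to a member in 0 of 46 cases, which allows up to 7.71% (upper exact bound).

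Astroglial genes were nearest to a member in 4 of 61 cases (6.56%, interval 1.82% to 15.9%; median gap 56.6 kb). The best by RFX1 was Igfbp5, a binding protein gene of insulin-like growth factors, with folds of 11.7 (RFX1), 11.5 (RFX2) and 26.3 (RFX3) at 55046 bp, and it also had an RFX3 summit at its own end. Near Ednrb, the endothelin receptor B gene, RFX1 fold was 16.4, RFX2 fold 19.4 and RFX3 fold 16.8. Cd24a, a surface protein gene of ependymal and immature neural cells, had 14.8, 10.8 and 14.3, and Luzp2 had 8.37, 10.4 and 9.28. Solute carrier and aquaporin genes counted 2 of 36 (5.56%), namely Aqp9, a glycerol and water channel gene, with folds of 12.5, 10.9 and 19.5 at 48070 bp, and Slc2a1, a glucose transporter gene, with 10.6, 9.34 and 8.73 at 1972 bp.

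Signalling genes of the Wnt, Bmp, Fgf, Hedgehog and Notch pathways counted 4 of 129 (3.10%, interval 0.851% to 7.75%; median gap 66.7 kb), an interval that includes 1.52%. They fall into ligands, antagonists and receptors. The ligand gene Bmp7 had folds of 16.0 (RFX1), 8.27 (RFX2) and 13.8 (RFX3) at 34622 bp, and Chrd, whose product chordin binds Bmp ligands, had 13.5, 8.66 and 14.8 at 54384 bp. Gas1, a co-receptor gene for Hedgehog, had 12.7 (RFX1), 11.3 (RFX2) and 21.4 (RFX3) at 63754 bp and ranked 44 in the RFX3 list. Ptch1, the Hedgehog receptor gene, had 15.8, 9.57 and 15.7 at 53942 bp, and its region lay 55 bp from the lncRNA gene Gm30709. None of the 4 had an RFX summit at its own ends.

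Genes of ciliary structure and motility were nearest to a member in only 2 of 175 cases (1.14%, interval 0.139% to 4.07%), close to the 1.52% of all protein-coding genes, and their gaps were short, with a median of 20.3 kb. Both were bound at their own ends too. Ift22, a gene of intraflagellar transport complex B, had summits of all 3 factors at an end, besides a member 4550 bp away with folds of 9.90 for RFX1, 6.30 for RFX2 and 5.09 for RFX3. That member is the one whose summit lies in the window of 4933404O12Rik printed above. Ahi1, a gene of the ciliary transition zone, had RFX1 and RFX3 summits at an end, besides a member 7433 bp away with folds of 15.9 for RFX1, 14.2 for RFX2 and 28.2 for RFX3. No gene of the list of 32 for the multiciliated cell programme was nearest to a member (upper exact bound 10.9%). Of 77 cytosolic ribosomal protein genes, kept as a housekeeping comparison, 2 were (2.60%), Rps24 at 321761 bp and Rps14 at 4712 bp.

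**Figure D5:**
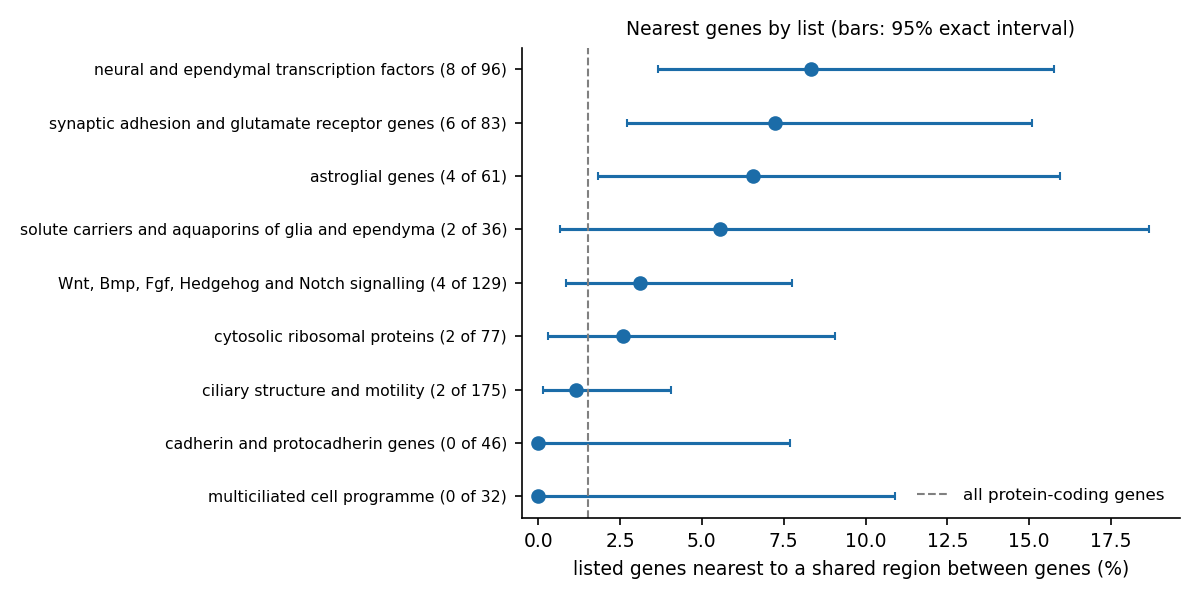
Share of the genes of each of 9 lists that are the nearest protein-coding gene of a shared intergenic region (x axis, %), with 95% exact intervals; the dashed line is the 1.52% of all protein-coding genes. Lower interval bounds lie above the line for the transcription factor, synaptic and astroglial lists. With genes farther than 100 kb left out, the astroglial list alone keeps this, on 4 of 61 genes. The lists were chosen with earlier results of these data known, so a bound above the line is not a test. The ciliary list lies at 1.14%, and gap lengths beside the genes differ between lists.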

How the data were processed

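ChIP-seq of 3 RFX factors in ependymal cells had been reduced by the authors to 1 list of reproducible peaks per factor, with replicates merged. The build GRCm38 and the tools MACS2 2.0.10.20130520, Bowtie 0.12.7 and CASAVA 1.8.2 are named, without roles, in the submitters' processing notes. Not given in the sources used here are the control, the read depth and how a peak qualified as reproducible. The deposited fold enrichment is a ratio per peak, the deposited −log10 q is the strength of the call, and the deposited summit offset gives the strongest base; all are the authors' values and were used to describe, rank and filter. The −log10 p column was not used.

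Peaks sharing at least 1 bp were merged with Python 3.11.15, pandas 2.3.3 and numpy 2.4.6. Positions were set against 21887 protein-coding genes of a RefSeq table of GRCm38.p6 that gives starts and ends without transcripts. Intervals came from scipy 1.17.1. The merging and placing were tested on simulated peaks. Of 720 list genes, 717 matched the table. The nearest gene is that with the closest end. No test was made, since the rule used the peak values and positions. The planned test of X-box shares over all members was not run; 32851 RefSeq promoter windows and the microRNA table were searched in its place, and the sequences printed were limited to those windows. Promoter windows carry a strand.

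Members and lists were chosen with earlier results of these data known. Genes were named by rule: nearest genes of the 10 members best by mean rank, of the best 5 by each list, of the 5 highest and lowest fold ratios, of the 5 farthest members and the 5 on either side of the limit, all list genes nearest to a member, and noncoding genes within 1 kb. Alternatives changed the overlap, the peak threshold, the distance, the gene set, the placing summit and the gene assignment.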

Additional observations from a re-analysis of the deposited data

How the results depend on the processing

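A recomputed value was counted as moved when a number of regions differed by more than 1.5 times, or when a share or median left the 95% interval of the value reported; 16 moved and 62 did not, some of which still changed markedly. Counting all RefSeq genes left 244 of the 347 regions. Of neural and ependymal transcription factor genes, 4.17% were nearest within 100 kb and 13.5% flanked a member, and of ciliary genes 2.86% flanked one, against 2.94% of all protein-coding genes. With the better-scoring 50% of each list, 179 shared intergenic regions were left, with median folds of 14.6 for RFX1, 13.5 for RFX2 and 15.6 for RFX3. With each list shortened to the length of the RFX2 list, 136 were left, 23.3% of the shared regions, with median folds of 16.9, 12.9 and 20.1. A limit of 5 kb from gene ends gave a share of 24% and a median distance of 45277 bp; counting all RefSeq genes gave a share of 19.98% and a median RFX3 fold of 14.8. These settings keep fewer peaks or fewer positions, and what caused the changes was not tested. Of the 2 cuts of peaks, only the shortened lists moved the share between genes, to 23.3%. With the better-scoring 50% the share was 29.6%, which stayed inside the interval. Of synaptic genes, 2.41% were nearest within 100 kb and 15.7% flanked a member; of cadherin genes, 8.70% flanked one. RFX3 fold exceeded RFX1 fold in 49.7% to 56.1% of members under all settings of overlap, threshold, distance, gene set and placing summit. No paired analysis was possible because the replicates of each factor were merged into 1 list, so no replicate could be left out either. The alternatives for the X-box test were not run. Depth is unknown, so a site outside a list may still be bound.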
